A study of Drosophila melanogaster with 12 samples.

Results

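Chimpo is a retrotransposon of *Drosophila melanogaster* with long terminal repeats (LTRs). Its small RNAs are described here across ovaries and testes of flies with and without an added Y chromosome. The deposited tables split the element into an internal part, Chimpo_I, and its terminal repeat, Chimpo_LTR, each on a Plus and a Minus strand. All rows with these names were taken, which gave 4 of 968 entries in the ovary table and 3 of 845 in the testis table (7 of 1813 in all). The testis table used here holds no row for Chimpo_LTR Plus; the fewest reads of any listed testis entry were 6 over the 6 libraries.

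The 12 libraries form 6 groups of 2 biological replicates from flies aged 2 days. The ovary groups are females with an added Y chromosome from Ohio (XXYohio) or Congo (XXYcongo) and their XX controls. The testis groups are males with an added Ohio (XYYohio) or Congo (XYYcongo) Y chromosome and their XY controls. All groups were reared at 23 °C with 14 hours of light. The labels write the sex chromosomes with a caret, left out here, and give neither its meaning nor how many flies went into a library. The columns headed Cs in the tables were read as the Yohio groups, since the other columns of each table were named outright, so every Yohio value rests on that reading. The labels present the added Y chromosome as a genetically engineered aneuploidy, and the design sets each such genotype against its control within a tissue.

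An LTR retrotransposon is copied through an RNA that runs from a promoter in its first LTR through the internal part, which encodes the structural protein and the reverse transcriptase, into its second LTR. In fly gonads such RNAs are targets of Piwi-interacting RNAs (piRNAs), small RNAs cut from transposon transcripts and from transcripts of piRNA clusters, which are loci rich in transposon remnants. piRNAs antisense to an element guide Piwi proteins to its transcripts, and sense piRNAs arise when those transcripts are cut. A consensus is usually written in the sense direction, in which case Minus reads are antisense to the element; the tables do not state the orientation. They give no read length either, so piRNAs, small interfering RNAs and fragments of longer RNAs cannot be told apart. They hold no marker genes against which the labelled tissues could be checked, and in whole gonads fewer cells of a type and less RNA per cell cannot be told apart.

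Non-spike reads per library ran from 1114251 to 2663239 in the Y-bearing ovaries, against 897596 and 1285309 in XX ovaries. In the testes with an added Y chromosome they ran from 672218 to 1164314, against 589490 and 1310076 in XY testes. Chimpo gave 3300 to 13492 reads per library in the Y-bearing ovaries, against 1026 and 1308 in XX ovaries. It gave 418 to 551 in testes with an added Y chromosome, against 246 and 1024 in XY testes. Spike-in reads ran from 104289 to 449976 in the Y-bearing ovaries, against 294323 and 272659 in XX ovaries, and from 216527 to 2299861 in testes with an added Y chromosome, against 631570 and 742394 in XY testes.

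The rows were taken by name, but the element itself is taken to have been selected on its high Minus values in XXYohio and XXYcongo ovaries relative to XX ovaries, since earlier results of these data were known. The values of those contrasts are therefore a description, given without a p-value, and which contrasts were tested rests on that reading. Values are the authors' normalized reads. A log2 fold change is a difference of mean log2(value + 1), with its standard error (SE) from limma and n = 2 libraries per group.

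In ovaries with an added Y chromosome, small RNAs from the Minus strand of Chimpo were several-fold higher than in XX ovaries, in both the internal part and the LTR. Chimpo_I Minus read 1695 and 1997 in XXYohio, 4033 and 4318 in XXYcongo, and 545 and 491 in XX. The groups did not overlap, and the order was XXYcongo, XXYohio, XX. The ratio of group means was 3.56 for XXYohio over XX (log2 fold change 1.83 ± 0.21) and 8.06 for XXYcongo over XX (3.01 ± 0.21). Chimpo_LTR Minus followed the same order with far fewer reads, at 57.4 and 52.1 in XXYohio, 95.5 and 98.0 in XXYcongo, and 7 and 10.5 in XX. Its log2 fold change was 2.54 ± 0.35 in XXYohio and 3.35 ± 0.35 in XXYcongo relative to XX. The XX values rest on 7 and 15 reads, whose exact 95% Poisson intervals are 2.81 to 14.4 and 8.40 to 24.7 reads; these and all later intervals of reads cover counting error only.

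The Plus strand differed from this. Chimpo_I Plus read 391 and 361 in XXYohio, 1076 and 963 in XXYcongo, and 468 and 401 in XX. Both XXYohio libraries were below both XX libraries, while both XXYcongo libraries were above them, with log2 fold changes of −0.21 ± 0.23 (1.07 with scaling to the spike-ins, which moves the median of all features from 0.10 to 1.33) and 1.23 ± 0.23. Chimpo_LTR Plus stayed low in every ovary library, at 4.02 and 13.2 in XXYohio, 10.4 and 17.2 in XXYcongo, and 6 and 11.9 in XX. All 3 groups overlapped. These values stand for 6 to 39 reads per library, which bounds the precision of its log2 fold changes (−0.17 ± 0.63 in XXYohio and 0.60 ± 0.63 in XXYcongo, with signs that turn under other scalings).

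**Figure D1:**
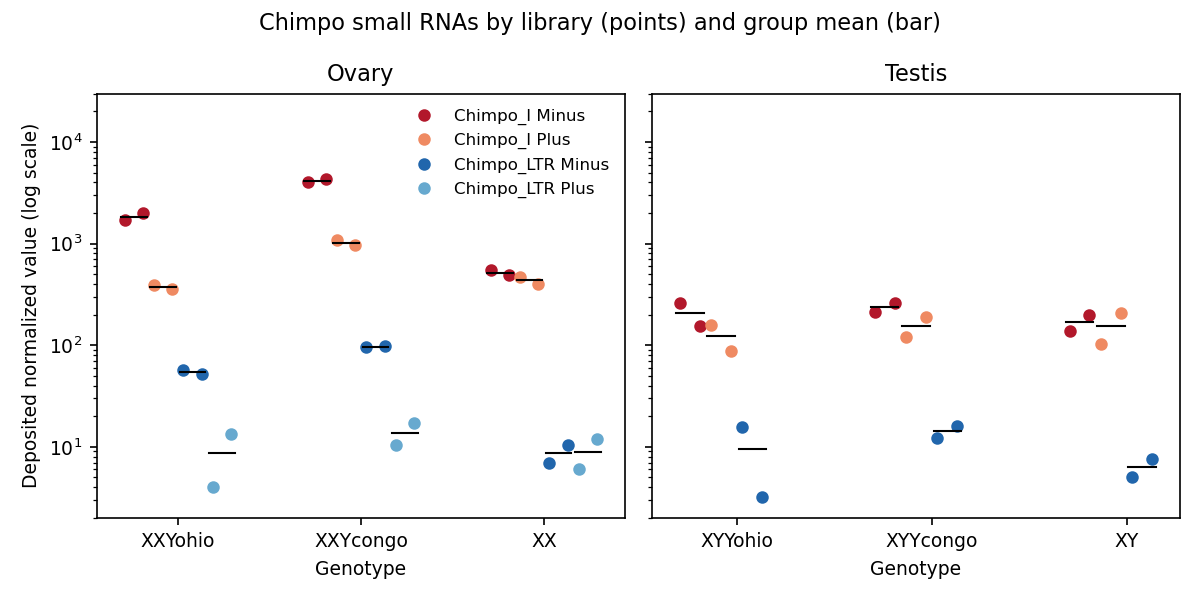
Deposited normalized values of the Chimpo entries in each library (points, log scale) with group means (bars), in ovary on the left and testis on the right. In ovary the Minus entries separate XXYcongo, XXYohio and XX, whereas Chimpo_I Plus stands high in XXYcongo and Chimpo_LTR Plus overlaps throughout; in testis Chimpo_I Plus overlaps throughout, and both XYYcongo libraries lie above both XY libraries for Chimpo_I Minus and Chimpo_LTR Minus.

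The setting of these values among other features differed between the Y chromosomes. In XXYohio ovary 2.53% of 791 tested features were called higher than in XX (limma, adjusted p under 0.05) and 3.29% in either direction, and 2 of the 4 Chimpo entries, both Minus, were among them, a count that the selection of the element fixes. In XXYcongo ovary 45.5% of features were called higher and 49.8% in either direction, and 3 of the 4 Chimpo entries were called by limma against 2 by edgeR and by DESeq2. The selection favours these counts too, so nothing is read from them. Of all 791 features edgeR called 177 higher and 149 lower, and DESeq2 186 and 156. With trimmed mean of M-values (TMM) scaling the 360 higher and 34 lower calls of limma became 179 and 149. The median log2 fold change over all transposon and repeat (TE) entries was −0.02 in XXYohio and 1.13 in XXYcongo relative to XX, so Chimpo_I Plus, at 1.23 in XXYcongo, lay close to the TE median. The Minus entries lay far above it for both Y chromosomes. Of 339 TE entries, Chimpo_LTR Minus ranked 4 and Chimpo_I Minus ranked 11 by log2 fold change in XXYohio, and they ranked 3 and 6 in XXYcongo. Their distance from the median and their ranks are a description that the selection favours. The size of the values depends on scaling. For XXYcongo, TMM moved the median of all features to −0.0007 from 0.74, and the log2 fold changes became 2.23 for Chimpo_I Minus, 2.61 for Chimpo_LTR Minus and 0.46 for Chimpo_I Plus. For XXYohio, spike-in scaling gave 3.10 for Chimpo_I Minus and 3.70 for Chimpo_LTR Minus.

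The comparison with other LTR elements of the gypsy group, the group to which gypsy, ZAM and Idefix belong, is by counts over a list of 128 tested ovary entries without Chimpo. That list, matched on entry names, is partial. It leaves out LTR elements such as the MICROPIA, BLOOD and STALKER entries. In XXYohio relative to XX, 5 of the 128 rose, 1 fell and 122 did not pass (median 0.05). The 5 were all Plus entries. The 3 largest changes were QUASIMODO_LTR Plus (1.89 ± 0.37, adjusted p = 0.0115), GTWIN_I Plus (1.75 ± 0.35, adjusted p = 0.0115) and TIRANT_I Plus (1.59 ± 0.27, adjusted p = 0.00393). Only 1 of the 128 entries had a larger log2 fold change than Chimpo_I Minus in XXYohio, a standing that the selection of the element favours. In XXYcongo relative to XX, on the deposited scale whose all-feature calls TMM made nearly even, 100 rose, 2 fell and 26 did not pass (median 1.21). Of the 67 Minus entries 61 rose, with a Minus median of 1.43 against 3.01 for Chimpo_I Minus, a gap that the selection likewise favours. The largest changes there were QUASIMODO_LTR Plus (2.96 ± 0.37), GYPSY2_LTR Minus (2.94 ± 0.32) and Gypsy1-LTR_DM Minus (2.87 ± 0.50); their adjusted p-values ran from 1.43e-05 to 0.000413.

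**Figure D2:**
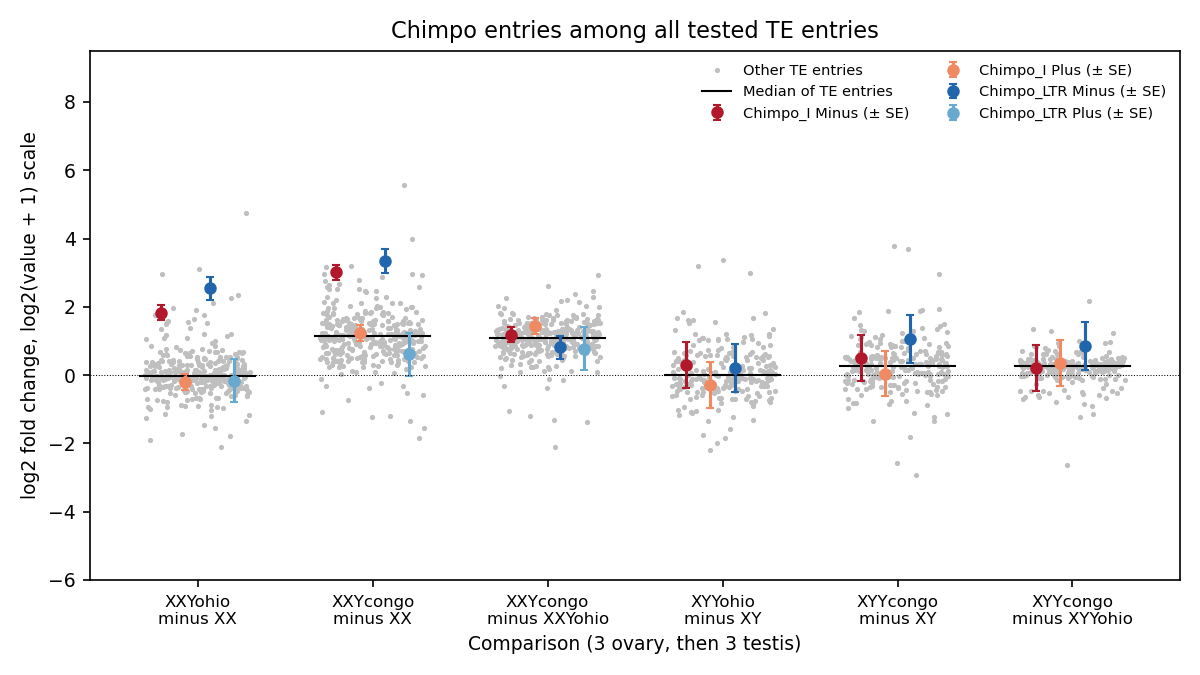
log2 fold changes (log2(value + 1) scale) of the Chimpo entries (coloured points with SE) among all tested TE entries (grey) with the TE median (black line), for 3 ovary and 3 testis comparisons. The Minus entries stand above the TE median in XXYohio and XXYcongo against XX ovary, the contrasts on which the element was selected. Chimpo_I Minus sits near the median in XXYcongo against XXYohio.

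The difference between the 2 added Y chromosomes in ovary did not choose the element, and it was tested. It uses the same libraries, and the Minus values of both groups were part of the selection. The p-values of this comparison, here and for the ratios below, take no account of that. Both strands of the internal part were higher in XXYcongo than in XXYohio ovary. Chimpo_I Minus rose by 1.18 ± 0.21 on the log2 scale (95% interval 0.72 to 1.64, limma adjusted p = 0.000702, higher in 2 of 2 libraries). Chimpo_I Plus rose by 1.44 ± 0.23 (95% interval 0.93 to 1.94, limma adjusted p = 0.000387, higher in 2 of 2 libraries). Chimpo_LTR Minus differed by 0.81 ± 0.35 (limma adjusted p = 0.0677) and Chimpo_LTR Plus by 0.77 ± 0.63 (limma adjusted p = 0.314), which did not pass. Thus 2 of 4 entries were called, where 44.9% of all features were called higher and 49.1% in either direction, and the median over TE entries on the Minus strand was itself 1.18. In the gypsy-group list 99 of 128 entries rose, 3 fell and 26 did not pass (median 1.20), with GYPSY2_LTR Minus (2.94 ± 0.32), QUASIMODO2-LTR_DM Minus (2.37 ± 0.29) and TRANSPAC_LTR Plus (2.26 ± 0.36) the largest. With TMM scaling the values fell to 0.47 for Chimpo_I Minus (limma adjusted p = 0.0471) and 0.73 for Chimpo_I Plus (limma adjusted p = 0.0253), while edgeR on the recovered reads gave 0.49 for Chimpo_I Minus and an adjusted p of 0.0507. With scaling to the spike-ins the values were 0.83 and 1.09 and neither passed (limma adjusted p = 0.733 for both). Spike-in reads differed between replicates, at 104289 and 217402 in XXYohio and 449976 and 201372 in XXYcongo. Whether that spread ended the calls was not tested.

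Shares within a library do not depend on scaling. Chimpo took 1.06% and 1.01% of TE reads in XXYohio ovary, 1.12% and 1.20% in XXYcongo ovary, and 0.444% and 0.454% in XX ovary. The XXYohio and XXYcongo shares of TE reads were thus close to each other and all above those of XX. The rise over XX includes the Minus reads on which the element was selected. As shares of non-spike reads the groups differed, at 0.243% and 0.296% in XXYohio and 0.507% and 0.504% in XXYcongo. The XX shares of non-spike reads were 0.114% and 0.102%. In testis the shares were 0.381% and 0.343% in XYYohio, 0.355% and 0.348% in XYYcongo, and 0.328% and 0.319% in XY. All 4 shares of TE reads in testes with an added Y chromosome were above both XY shares, by far less than in ovary. As shares of non-spike reads the testis groups overlapped. Those shares were 0.0773% and 0.0399% in XYYohio, 0.0585% and 0.0820% in XYYcongo, and 0.0417% and 0.0782% in XY. With 2 libraries a group the smallest two-sided exact permutation p is 0.333, so the shares were not tested.

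**Figure D3:**
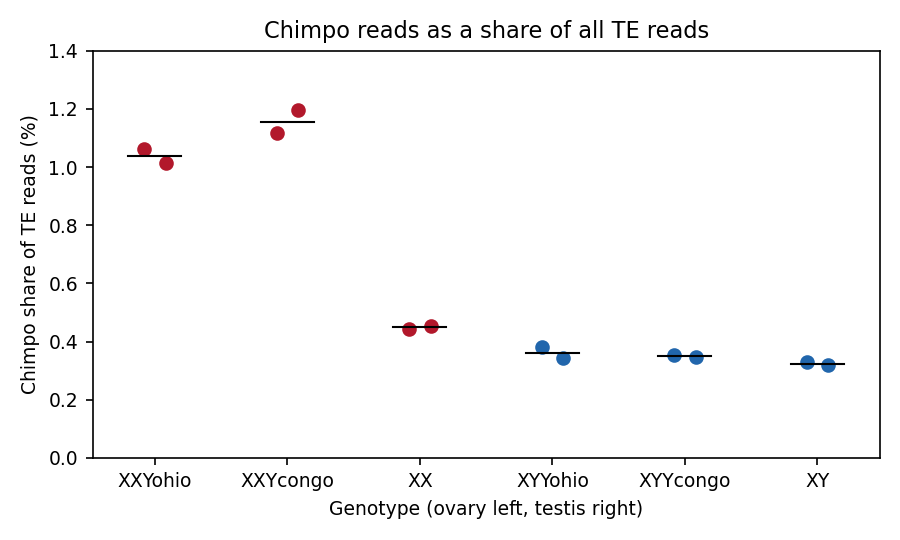
Chimpo reads as a percentage of all TE reads in each library (points) with group means (bars), for ovary genotypes in red and testis genotypes in blue. XXYohio and XXYcongo ovaries sit between 1.01% and 1.20%, XX ovaries at 0.444% and 0.454%, and all testes between 0.319% and 0.381%.

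The strand balance of the internal part was another measure free of scaling. It uses the Minus values on which the element was selected. The size and rank of its differences from XX are therefore a description that the selection favours. In XXYohio ovary 81.2% and 84.7% of Chimpo_I reads were Minus, in XXYcongo ovary 78.9% and 81.8%, and in XX ovary 53.8% and 55.02%. The 95% Wilson intervals of the Y-bearing ovaries began at 78.2% or above, and those of XX ended at 56.9% and 57.7%. The median Minus share over TE entries with at least 20 reads hardly moved, at 73.4% and 74.3% in XXYohio, 72.6% and 73.7% in XXYcongo, and 72.7% and 71.0% in XX. Chimpo_I was therefore above the TE median in the Y-bearing ovaries and below it in XX. In XX replicate 1, 120 of 157 TE entries had a higher Minus share than Chimpo_I, against 52 of 164 in XXYohio replicate 1 and 66 of 176 in XXYcongo replicate 1. On the log2 scale the Minus to Plus ratio of Chimpo_I was higher than in XX by 2.03 ± 0.19 in XXYohio and by 1.78 ± 0.19 in XXYcongo. Those differences ranked 4 and 5 of 163 entries listed on both strands, whose medians were 0.03 and 0.07 and of which 4.91% and 6.75% were called.

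The LTR showed the same turn toward the Minus strand, on few reads. Its Minus values were part of the selection too, so its ranks are likewise a description. The Minus share of Chimpo_LTR was 93.5% (100 of 107 reads) and 79.8% (71 of 89) in XXYohio, 90.1% (247 of 274) and 85.1% (222 of 261) in XXYcongo, and 53.8% (7 of 13) and 46.9% (15 of 32) in XX. The Wilson intervals of XX replicate 1 (29.1% to 76.8%) and XXYohio replicate 2 (70.3% to 86.8%) overlapped. The ratio was higher than in XX by 2.71 ± 0.55 in XXYohio and by 2.75 ± 0.55 in XXYcongo, ranks 1 and 2 of 163. The XXYohio value was 1.89 without its replicate 1, which has 7 Plus reads; in the fit of all libraries 3 entries besides Chimpo_LTR exceeded that value. Between the 2 added Y chromosomes the strand ratio did not pass for either part: it differed by −0.25 ± 0.19 for Chimpo_I (XXYcongo minus XXYohio, 95% interval −0.73 to 0.22, limma adjusted p = 0.517) and by 0.04 ± 0.55 for Chimpo_LTR (95% interval −1.34 to 1.41, limma adjusted p = 0.974). In that comparison 0.613% of 163 entries were called.

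**Figure D4:**
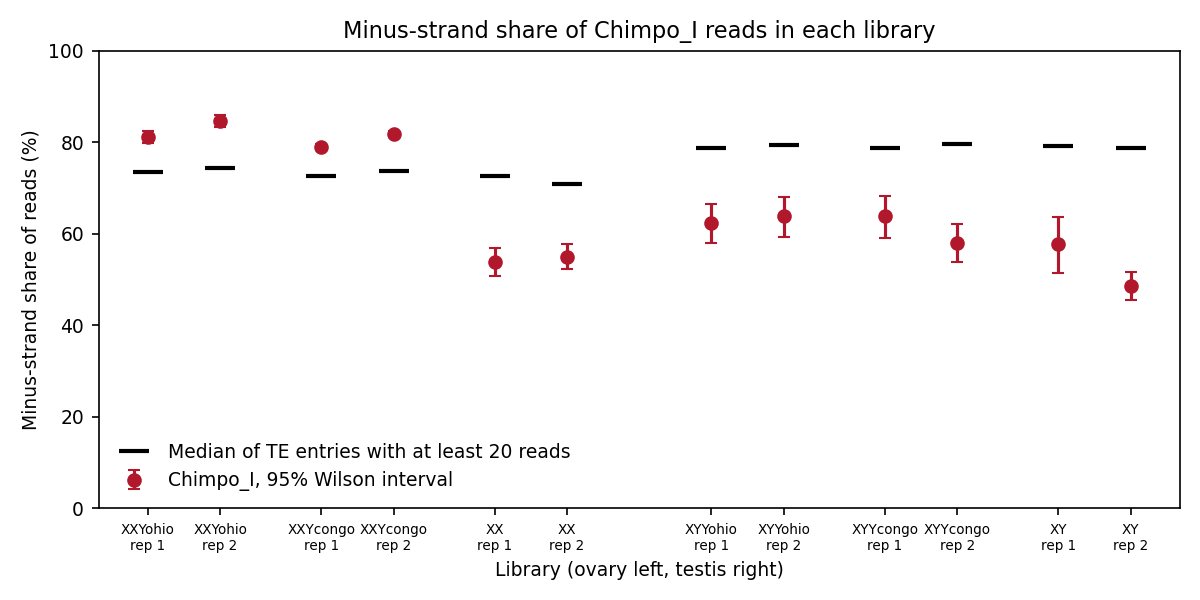
Minus-strand share of Chimpo_I reads in each library (red points, 95% Wilson intervals) beside the median Minus share of TE entries with at least 20 reads (black bars). Chimpo_I lies between 78.9% and 84.7% in XXYohio and XXYcongo ovaries, above the TE median, and between 48.7% and 63.8% in testes and 53.8% and 55.02% in XX ovaries, below it. Over all TE reads pooled, the Minus share was 41.3% to 44.0% in testes, below Chimpo_I, and 71.1% to 74.0% in ovaries.

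Testes gave a test of the added Y chromosomes on libraries that did not choose the element. No Chimpo entry passed in testis. Chimpo_I Minus read 262 and 156 in XYYohio, 210 and 263 in XYYcongo, and 139 and 197 in XY. The XYYohio values spanned those of XY replicate 2, and both XYYcongo values were above both XY values. Its log2 fold change was 0.29 ± 0.68 in XYYohio (95% interval −1.04 to 1.61, limma adjusted p = 0.998) and 0.50 ± 0.68 in XYYcongo (95% interval −0.82 to 1.83, limma adjusted p = 0.944) relative to XY. These intervals still include a 2-fold rise. Their width was set by the spread of all testis features at such values, not by that of Chimpo_I Minus itself.

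Chimpo_I Plus read 159 and 88.5 in XYYohio, 119 and 190 in XYYcongo, and 102 and 208 in XY testis. All groups overlapped, with log2 fold changes of −0.30 ± 0.67 (limma adjusted p = 0.998) and 0.05 ± 0.67 (limma adjusted p = 0.975). Chimpo_LTR Minus read 15.6 and 3.20 in XYYohio, 12.3 and 16.2 in XYYcongo, and 5 and 7.66 in XY, from 5 to 19 reads per library. Both XYYcongo libraries were above both XY libraries, and the XYYohio libraries lay on either side of them. The differences from XY were 0.21 ± 0.71 in XYYohio (limma adjusted p = 0.998) and 1.07 ± 0.71 in XYYcongo (95% interval −0.32 to 2.45, limma adjusted p = 0.791).

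Of the 3 testis entries, limma thus called 0 in XYYohio and 0 in XYYcongo, where 0.647% and 1.13% of 618 features were called higher than in XY (0.647% and 1.62% in either direction). At an unadjusted p under 0.05 the count was also 0, and edgeR and DESeq2 likewise called 0 with 0 at that level. Between XYYcongo and XYYohio the entries differed by 0.34 ± 0.67 (Chimpo_I Plus), 0.21 ± 0.68 (Chimpo_I Minus) and 0.85 ± 0.71 (Chimpo_LTR Minus), each with a limma adjusted p of 0.995. In that comparison limma, edgeR and DESeq2 called 0 of all 618 features, with 8, 31 and 17 at an unadjusted p under 0.05. In the gypsy-group list of 85 tested testis entries, 2 rose in XYYohio, TOM_I Plus (3.37 ± 0.69, limma adjusted p = 0.000333) and TABOR_I Plus (3.20 ± 0.67, limma adjusted p = 0.000346), and 83 did not pass. In XYYcongo the same 2 entries rose (3.78 ± 0.69 and 3.69 ± 0.67), DM297_LTR Plus fell (−2.94 ± 0.72, limma adjusted p = 0.00384) and 82 did not pass. By contrast edgeR called 0 of all 618 features in both comparisons, with 76 and 81 at an unadjusted p under 0.05, and DESeq2 called 36 and 11.

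The strand balance in testis was higher with an added Y chromosome but did not pass. Minus reads were 62.3% and 63.8% of Chimpo_I reads in XYYohio, 63.8% and 58.1% in XYYcongo, and 57.7% and 48.7% in XY. All 4 shares with an added Y chromosome were above both XY shares, with Wilson intervals that overlapped that of XY replicate 1 (51.4% to 63.7%) and lay above that of XY replicate 2 (45.6% to 51.7%). The log2 Minus to Plus ratio differed by 0.58 ± 0.29 in XYYohio (95% interval −0.10 to 1.27, limma adjusted p = 0.372) and by 0.46 ± 0.29 in XYYcongo (95% interval −0.23 to 1.15, limma adjusted p = 0.513) relative to XY. Of 119 testis entries listed on both strands, 5.88% and 1.68% were called in these comparisons. In ovary the differences from XX were 2.03 in XXYohio and 1.78 in XXYcongo, from Minus values on which the element was selected. The difference between tissues was not tested for that reason.

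The split between the LTR and the internal part was compared on the Minus strand, where both are listed in both tissues, as shares of reads; entry lengths are not given, so this is no level per length. The LTR took 3.27% and 2.54% of Chimpo Minus reads in XXYohio ovary, 2.31% and 2.22% in XXYcongo ovary, and 1.27% and 2.09% in XX ovary. In testis it took 5.62% and 2.01% in XYYohio, 5.51% and 5.79% in XYYcongo, and 3.47% and 3.74% in XY. Over 6 ovary and 6 testis libraries the mean was 2.28% ± 0.652 in ovary and 4.36% ± 1.53 in testis (SD), a difference of −2.07 percentage points. The testis libraries hold 5 to 19 LTR reads each. The difference was −2.15 points without the XX and XY libraries and −1.93 points with only those. The Minus share of Chimpo_I averaged 72.6% ± 14.2 in ovary and 59.1% ± 5.77 in testis, a difference of 13.5 points. It was 19.7 points without the XX and XY libraries and 1.24 points with only those. These shares have no p-value, since 4 of the 6 ovary libraries are those on which the element was selected. In controls alone the Minus share was 53.8% and 55.02% in XX ovary and 57.7% and 48.7% in XY testis. Tissue and sex cannot be told apart in these comparisons.

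Within a tissue, the log2 ratio of LTR to internal reads on the Minus strand differed from XX by 0.71 ± 0.43 in XXYohio and by 0.34 ± 0.43 in XXYcongo, and the shares of both Y-bearing groups were above those of both XX libraries, within the Wilson interval of XX replicate 2 (1.27% to 3.42%). The XXYcongo value was −0.10 with a pseudocount of 5 and 0.0033 without XX replicate 1. Of 86 element and strand pairs, 5.81% were called in each of these comparisons. On the Plus strand in ovary the ratio differed from XX by 0.04 ± 0.65 in XXYohio and −0.63 ± 0.65 in XXYcongo. The difference between XXYcongo and XXYohio did not pass on either strand (−0.37 ± 0.43 on Minus, limma adjusted p = 0.657, and −0.66 ± 0.65 on Plus, limma adjusted p = 0.634). In testis the Minus ratio differed from XY by −0.08 ± 0.42 in XYYohio (limma adjusted p = 0.913) and by 0.56 ± 0.42 in XYYcongo (limma adjusted p = 0.451), where 6.52% and 0.0% of 46 pairs were called.

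The features whose pattern was most like that of Chimpo_I Minus were ranked by Pearson's r of log2 values over the 6 libraries of a tissue, as a description. In ovary they were G2_DM Minus (r = 0.999), INVADER2_I Plus (0.994), GTWIN_LTR Minus (0.992), PROTOP_A Plus (0.990) and G2_DM Plus (0.989); G2 is a LINE retrotransposon and PROTOP_A a DNA transposon. G2_DM Minus read 2760 and 3322 in XXYohio, 5726 and 5813 in XXYcongo, and 1032 and 917 in XX. Chimpo_LTR Minus had r = 0.973, Chimpo_I Plus 0.702 and Chimpo_LTR Plus 0.373, against a median of 0.62 over 787 features. In testis the nearest were GYPSY6_LTR Minus (0.981), the repeat entry DMU06920 Plus (0.980), HETA Plus (0.980), BLOOD_I Minus (0.972) and Gypsy1-I_DM Minus (0.971), with Chimpo_LTR Minus at 0.928 and Chimpo_I Plus at 0.730 (median 0.58 over 615 features). Libraries of a genotype and the scale factor of each library are common to all features in these correlations.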

How the data were processed

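Small RNA of 6 ovary and 6 testis libraries was sequenced as single ends over 50 cycles, per the labels' protocols, after 15 PCR cycles. Trim Galore and Bowtie 1.1.1 are named in the submitters' processing notes. The build, the annotation and the handling of multiply mapped reads were not given in the sources used. Replicate 1 of XX and of XY was deposited as whole read counts. The other columns were deposited as a normalized signal, whole reads times 1 factor per library (100% of values whole within 0.01 of a read), and the reads recovered from it were used for shares, edgeR and DESeq2. The authors deposited a p-value per entry from their own analysis of variance; it was not used.

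Genotypes were compared within each tissue by limma 3.58.1 in R 4.3.3 with a trend, on log2(value + 1) of the 791 ovary and 618 testis features with a mean of at least 5, spike-ins left out. All 3 genotypes were in 1 fit, with 3 residual degrees of freedom. To these limma added prior degrees of freedom drawn from all features, 9.59 in ovary and infinite in testis. Each SE of a testis entry was therefore set by the trend over all features, not by the spread of that entry. P-values are two-sided and were adjusted by Benjamini-Hochberg over all features of a comparison and called under 0.05. Strand ratios (163 and 119 entries) and LTR to internal ratios (86 and 46) were fitted likewise in separate fits, whose prior degrees of freedom are not given here. The infinite value in testis belongs to the fit of entries, not to the fits of ratios. Shares were set side by side between tissues without a p-value: exact permutation tests (SciPy 1.17.1) had been planned, but most ovary libraries entering them are those on which the element was selected. The planned share of the LTR in all Chimpo reads was taken on the Minus strand, as the testis table has no Chimpo_LTR Plus row, and the Minus share of Chimpo_LTR was left out of this comparison for the same reason. Alternatives were scaling (TMM, non-spike total, spike-in total), pseudocounts, filters, a replicate block, edgeR 4.0.16, DESeq2 1.42.0, 2-group fits and leaving out each library. The fits were also run on simulated counts drawn independently for each feature and library. Those counts lack deviations shared by same-numbered libraries, and no result here rests on that run. All Chimpo rows are named; of the gypsy-group list, matched on entry names, the 3 largest called changes in a comparison, and the 5 features most like Chimpo_I Minus. The members and lists were chosen with earlier results of these data known. Chimpo sequences are not printed, as the files used here hold none.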

Additional observations from a re-analysis of the deposited data

How the results depend on the processing

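The Minus entries stayed higher in XXYohio and XXYcongo than in XX ovary under every alternative run, with other sizes. The element was selected on these contrasts in the same libraries, so the kept direction is no independent support. In XXYohio minus XX, spike-in scaling, with or without a replicate block, gave 3.10 for Chimpo_I Minus, 3.70 for Chimpo_LTR Minus, and turned Chimpo_I Plus to 1.07 and Chimpo_LTR Plus to 0.90; a pseudocount of 5 gave 2.13 for Chimpo_LTR Minus. In XXYcongo minus XX, Chimpo_I Minus was 2.23 with TMM, 2.78 with non-spike total, 3.94 with spike-in scaling, and 2.25 with both edgeR and DESeq2. Chimpo_LTR Minus was 2.61 with TMM, 4.17 with spike-in scaling, 2.65 with edgeR and DESeq2, and 2.90 with a pseudocount of 5. Chimpo_I Plus was 0.46 with TMM, 2.16 with spike-in scaling, 0.48 with edgeR and 0.47 with DESeq2. Chimpo_LTR Plus turned to −0.11 with TMM, −0.22 with edgeR and −0.20 with DESeq2, and was 1.41 with spike-in scaling. The ratio of LTR to internal Minus reads turned to −0.10 with a pseudocount of 5.

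In XXYcongo minus XXYohio, spike-in scaling ended the calls of Chimpo_I Minus (0.83) and Chimpo_I Plus (1.09). For both, the limma adjusted p was 0.733 without a replicate block and 0.877 with it. With edgeR the call of Chimpo_I Minus ended too (0.49, edgeR adjusted p = 0.0507). Chimpo_LTR Minus (0.81) passed with only the 2 groups compared (adjusted p = 0.0365) or without an XX library (0.0457 and 0.0476), where its value is unchanged by construction. DESeq2 turned Chimpo_LTR Plus to −0.035. In testis, where no Chimpo entry passed under any alternative, Chimpo_I Plus in XYYcongo minus XY turned to −0.23 with TMM, −0.00465 with non-spike total, −0.38 with spike-in scaling (with and without a replicate block), −0.23 with edgeR and −0.25 with DESeq2. Chimpo_I Minus in XYYcongo minus XYYohio turned to −0.12 with TMM, −0.13 with spike-in scaling (with and without a replicate block), −0.12 with edgeR and −0.00978 with DESeq2. The cause of these shifts was not tested.

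Features called in XXYohio minus XX numbered 26, against 11 with spike-in scaling, 2 when a block for replicate number was added to that scaling, 42 with the replicate block alone, 14 without a trend and 17 with edgeR. In XXYcongo minus XX they numbered 394, against 95 with both spike-in scaling and the block, and in XXYcongo minus XXYohio 388, against 54 with spike-in scaling and 18 with the block added. With edgeR's TMM the split of higher and lower calls was 177 and 149, and 149 and 164, in these comparisons, against 360 and 34, and 355 and 33, as deposited. In XYYohio minus XY 4 were called, against 0 with TMM, spike-in scaling or edgeR (76 at an unadjusted p under 0.05 with edgeR), 4 with spike-in scaling and the replicate block, 2 with a mean of at least 20 and 36 with DESeq2. In XYYcongo minus XY 10 were called, against 0 with TMM, spike-in scaling or edgeR (81 at that level with edgeR), 7 with spike-in scaling and the replicate block and 5 with a mean of at least 20.

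Leaving out each library in turn gave 15 to 40, 286 to 387 and 275 to 401 calls in the ovary comparisons (in the order above) and 0 to 6, 2 to 22 and 0 to 2 in testis. Chimpo_LTR Plus ran from −0.92 to 0.58 in XXYohio minus XX, and Chimpo_LTR Minus from 0.74 to 0.88 in XXYcongo minus XXYohio. The strand ratio of Chimpo_LTR ran from 1.89 to 3.53 in XXYohio minus XX and from −0.78 to 0.86 in XXYcongo minus XXYohio, and the Plus ratio of LTR to internal from −0.77 to 0.85 and from −1.47 to 0.15. In XYYohio minus XY, Chimpo_I Minus ran from −0.083 to 0.66, Chimpo_I Plus from −0.81 to 0.21, Chimpo_LTR Minus from −0.78 to 1.21 and the Minus ratio of LTR to internal from −0.70 to 0.54. In XYYcongo minus XY, Chimpo_I Plus ran from −0.46 to 0.56. In XYYcongo minus XYYohio, Chimpo_I Minus ran from −0.16 to 0.59, Chimpo_I Plus from −0.076 to 0.76, Chimpo_LTR Minus from −0.14 to 1.85 and the strand ratio of Chimpo_I from −0.30 to 0.044. A group left with 1 library was assumed to vary like the others.

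The LTR share of Minus reads, ovary minus testis, ran from −2.54 to −1.79 points, and the Minus share of Chimpo_I from 11.1 to 17.3 points. Without the XX and XY libraries they were −2.15 and 19.7 points, and with only those −1.93 and 1.24 points. Replicates have only a number in common: deviations of same-numbered libraries correlated at 0.02 to 0.25 in ovary and 0.35 to 0.41 in testis, and a replicate block changed no Chimpo call on the deposited scale. A distinct-profile fit and a median over genotypes were chosen after seeing the data. Low entries gave no value with a mean of at least 20. Depth limits Chimpo_LTR Plus in ovary and Chimpo_LTR Minus in testis and in XX ovary the most.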
